A study of Mus musculus with 16 samples.

Results

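The sterol regulatory element-binding proteins (SREBPs) and the proteins that release them from the endoplasmic reticulum were followed in cultured mouse hepatocytes, taken from male animals of strain C57Bl/J (as labelled; the age of the animals is not given in the sources used here). The set comprised 7 genes, Srebf1, Srebf2, Scap, Insig1, Insig2, Mbtps1 and Mbtps2, of 20659 genes named on the array, and they were taken by name, with their probes found through the RefSeq accession each probe carries. All 7 were among the 15091 genes tested. Cells in Williams Medium E were treated, from 48 h after plating and for 48 h, with SQ1 at a labelled 100 µM or with pravastatin at 30 µM, and untreated hepatocytes were the control for both drugs. The doses differ, and the unit given for SQ1 may be wrong, since squalestatins are usually used at far lower doses. RNA of treated cells was hybridised against RNA of control cells on 16 dual-colour Agilent arrays, 8 for SQ1 and 8 for pravastatin, with the dyes swapped on 4 of the 8. SQ1 (squalestatin 1) inhibits squalene synthase, the first step that belongs to sterols alone, and pravastatin, a statin, blocks an early step of the mevalonate pathway.

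SREBPs are made as precursors in the membrane of the endoplasmic reticulum, where Scap binds them and senses cholesterol. When sterols are plentiful, Insig proteins hold Scap in place; when they run short, Scap escorts the SREBP to the Golgi, where the site 1 and site 2 proteases cut it and the released part enters the nucleus. In liver, SREBP-2 mainly drives genes of cholesterol synthesis and uptake, and SREBP-1c drives genes of fatty acid synthesis. Insig1 is itself an SREBP target, so that its mRNA commonly follows SREBP activity.

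With SQ1, 4 of the 7 mRNAs were higher (Insig1, Srebf2, Scap and Mbtps2), 2 were lower (Srebf1 and Mbtps1) and Insig2 did not pass the test. With pravastatin, the same 4 were higher, Srebf1 and Insig2 were lower, and Mbtps1 did not pass. Arrays of the same replicate number share a control, so that the ratios of the drugs are not independent. The part of the shared control in the likeness of these calls was not tested. Calls were made in limma at an adjusted p of 0.05, with Benjamini-Hochberg adjustment over all genes tested. This called 32.2% of all genes with SQ1 (15.7% higher and 16.5% lower) and 66.6% with pravastatin (30.8% higher and 35.8% lower). With pravastatin most genes were called, so that the number of called members is not by itself a result about them. Where ratios or levels below are said not to overlap, the share of all genes without overlap was not computed. A lack of overlap is therefore not shown to be particular to a member. The median log2 fold change of the 7 was 0.12 with SQ1 and 0.076 with pravastatin, beside -0.0024 and -0.012 over all genes. All 11 probes of the 7 genes were well above background in both channels of every array, and none was saturated. Srebf1, Scap and Insig1 had no second probe to set beside the first.

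**Figure D1:**
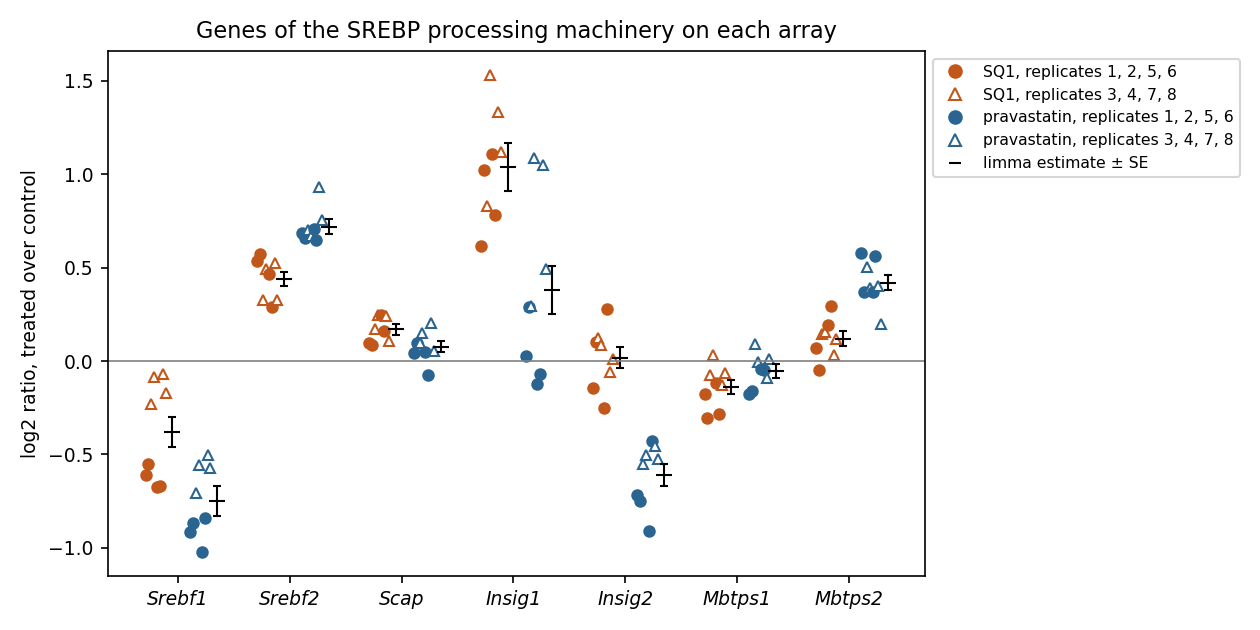
Treated-over-control log2 ratio (vertical axis, dye effect removed) of each of the 7 genes on each array, SQ1 in orange and pravastatin in blue, with the limma estimate and its SE in black. Filled circles are replicates 1, 2, 5 and 6 and open triangles replicates 3, 4, 7 and 8, which lay on different slides. Insig1 reached 1.53 with SQ1, and Srebf1 was below 0 on all 16 arrays. Srebf2 (brighter probe only) and Insig2 did not overlap between the drugs. The share of all genes without such overlap was not computed, and 53.0% of all genes differed between the drugs in limma.

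Srebf2, which encodes SREBP-2, had log2 ratios of 0.29 to 0.58 with SQ1 (median 0.48) and of 0.65 to 0.93 with pravastatin (median 0.69). Every array was above 0 and no SQ1 array reached the lowest pravastatin array. Its level, as log2 intensity, was 10.70 to 10.94 in SQ1-treated cells against 10.23 to 10.55 in their controls, and 11.02 to 11.29 in pravastatin-treated cells against 10.21 to 10.64 in theirs, so that treated and control levels did not overlap with either drug. The log2 fold change was 0.44 ± 0.038 with SQ1 (SE, 1.36-fold, limma adjusted p = 2.99e-07) and 0.72 ± 0.038 with pravastatin (1.65-fold, limma adjusted p = 8.98e-11). Each drug has 8 arrays, and the SE here and below comes from a spread fitted over all 16 and shared by both drugs. SQ1 minus pravastatin was -0.28 ± 0.053 (limma adjusted p = 0.000375), and Srebf2 was lower with SQ1 than with pravastatin at all 8 replicate numbers. This difference was seen with the brighter of the gene's 2 probes. The dimmer one gave 0.20 ± 0.038 with SQ1 and 0.22 ± 0.038 with pravastatin, both called, and a difference of -0.017 with an interval of -0.13 to 0.098 (limma adjusted p = 0.818). Fitted over all probes, 29.0% passed with SQ1, 63.7% with pravastatin and 48.7% for the difference. It rose with both drugs, by less than the brighter probe, and its signal was lower, at log2 levels of 8.20 to 8.62 in SQ1-treated cells against 8.06 to 8.37 in controls.

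The stretch before the start of Srebf2 is shown because SREBPs are known to act on this gene's own promoter. It is the RefSeq promoter entry on mouse build GRCm38.p6, chr15:82147019-82147268, plus strand, the 250 bases before the annotated start, 5′ to 3′. Capitals mark matches to CACCCCA (the core of a sterol regulatory element), ATTGG (an inverted CCAAT box, the NF-Y motif) and GGGCGG (a GC box, the Sp1 motif), on either strand.
Srebf2: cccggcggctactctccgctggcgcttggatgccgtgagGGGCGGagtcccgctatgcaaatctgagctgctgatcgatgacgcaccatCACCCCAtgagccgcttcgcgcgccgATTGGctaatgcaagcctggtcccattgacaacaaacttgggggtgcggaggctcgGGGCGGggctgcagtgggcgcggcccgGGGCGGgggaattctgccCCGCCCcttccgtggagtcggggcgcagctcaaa
The match to CACCCCA began 161 bases and ATTGG 135 bases before the start, and 4 GC boxes lay in this stretch. Of 32851 mouse promoter entries (250 bases before to 50 after a start), 7.6% held CACCCCA, 37.4% ATTGG, 35.7% GGGCGG and 2.6% both CACCCCA and ATTGG. Of the 12 entries for the 7 genes, the one of Srebf2 alone held CACCCCA. A match of letters is a description and does not show that a factor binds there.

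Insig1, the retention protein whose gene is itself driven by SREBPs, showed the largest rise of the 7 with SQ1. Its log2 ratios were 0.61 to 1.53 with SQ1 (median 1.07) and -0.12 to 1.09 with pravastatin (median 0.29). All 8 SQ1 arrays were above 0, and 6 of 8 pravastatin arrays were. Levels did not overlap with SQ1, at log2 intensities of 13.20 to 14.38 in treated cells against 11.74 to 13.18 in controls, and overlapped with pravastatin, at 12.54 to 13.23 against 11.69 to 13.31. The log2 fold change was 1.04 ± 0.13 with SQ1 (2.06-fold, limma adjusted p = 1.94e-05) and 0.38 ± 0.13 with pravastatin (1.30-fold, limma adjusted p = 0.0172). SQ1 minus pravastatin was 0.66 ± 0.19 (limma adjusted p = 0.00664), and Insig1 was higher with SQ1 than with pravastatin at all 8 replicate numbers, by 0.28 to 1.23.

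The pravastatin arrays of Insig1 fell into 2 sets that followed the slide. Replicates 1, 2, 5 and 6, on 1 slide, gave -0.12 to 0.29, and replicates 3, 4, 7 and 8, on the other, gave 0.29 to 1.09. The limma estimates by slide were 0.03 ± 0.13 (limma adjusted p = 0.849) and 0.73 ± 0.13 (limma adjusted p = 0.000183), and their difference, -0.70 ± 0.19, passed the test (limma adjusted p = 0.0139, where 21.7% of all genes differed between these slides). The change of Insig1 with pravastatin thus lay in 1 of the 2 sets. The control channel moved with it: pravastatin-treated cells had 13.00 to 13.23 against control levels of 12.97 to 13.31 in the first set, and 12.54 to 13.07 against 11.69 to 12.58 in the second. On the SQ1 arrays the control levels of the same replicate numbers split likewise, with 13.47 to 14.38 in SQ1-treated cells against 12.94 to 13.18 in controls for the first set and 13.20 to 13.40 against 11.74 to 12.70 for the second. The 2 SQ1 slides, at 0.88 ± 0.13 and 1.20 ± 0.13, did not differ past the threshold (difference -0.32, interval -0.71 to 0.073, limma adjusted p = 0.283). Within each drug slide and replicate numbers coincide, so that culture and slide cannot be told apart there. The same replicate numbers lay on other slides for the other drug, and the part of culture in the split was not tested. Scan day also coincides with the pravastatin sets: replicates 1, 2, 5 and 6 of pravastatin were scanned on the first day and every other array on the second. The pravastatin call was lost without replicate 4 (0.27, limma adjusted p = 0.0639) or without replicate 7 (0.28, limma adjusted p = 0.0665), and in the fits with a slide block, a scan day block or no dye term (limma adjusted p = 0.0649, 0.0644 and 0.0598).

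**Figure D2:**
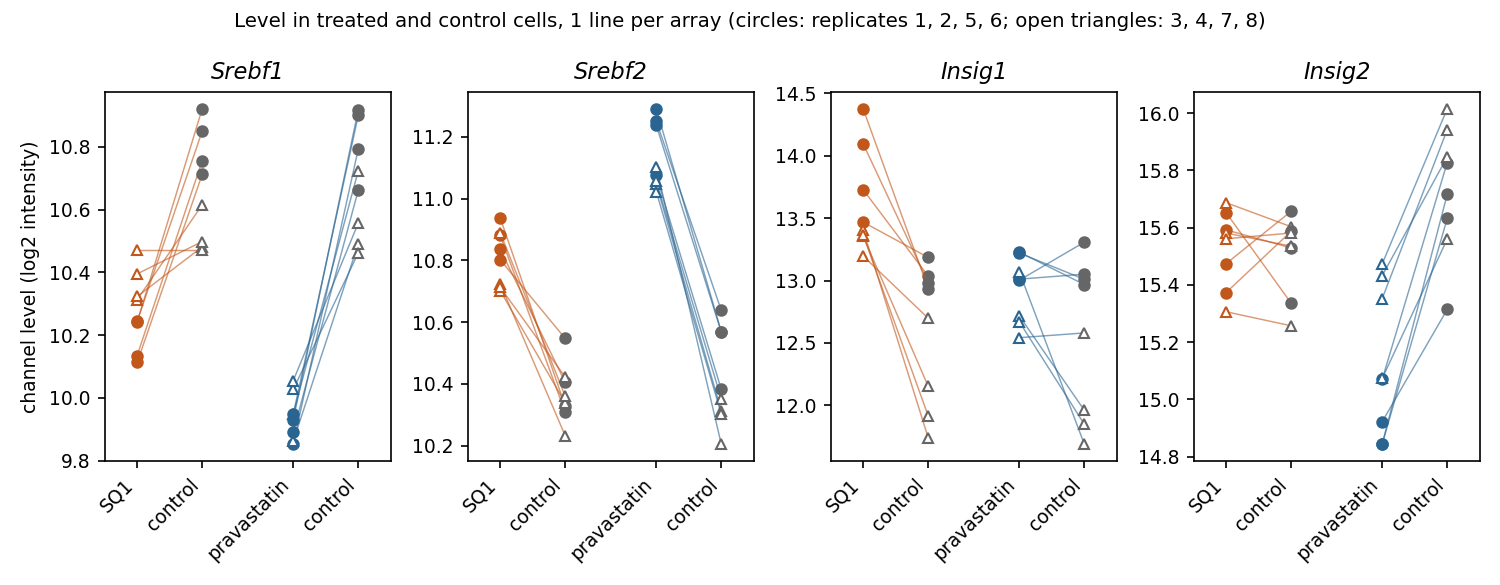
Level (vertical axis, log2 intensity after normalisation) of Srebf1, Srebf2, Insig1 and Insig2 in each array's treated channel (SQ1 orange, pravastatin blue) and control channel (grey), joined by 1 line per array; circles are replicates 1, 2, 5 and 6 and open triangles 3, 4, 7 and 8. Control levels of Insig1 were 11.69 to 13.31 over the pravastatin arrays, with the open triangles lowest, while treated and control levels of Srebf1 and Srebf2 (brighter probe) did not overlap with either drug. The share of all genes without such overlap was not computed.

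The stretch before the start of Insig1 (GRCm38.p6, chr5:28071162-28071411, plus strand, 250 bases, from RefSeq) is shown for comparison with that of Srebf2, as a second gene of the set known as an SREBP target. Capitals mark the CCAAT and GC box motifs named above and CACGTG (an E-box), on either strand.
Insig1: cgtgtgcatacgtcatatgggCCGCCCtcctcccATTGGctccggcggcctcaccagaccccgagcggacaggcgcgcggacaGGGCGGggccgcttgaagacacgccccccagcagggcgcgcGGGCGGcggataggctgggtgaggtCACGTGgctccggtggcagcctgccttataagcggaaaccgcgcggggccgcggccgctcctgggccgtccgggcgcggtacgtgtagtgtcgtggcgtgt
The match to ATTGG began 216 bases before the start and CACGTG 101 bases before it, with 3 GC boxes; CACGTG was in 7.2% of all entries. CACCCCA was not in this window.

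The genes whose 16 ratios lay nearest those of Insig1 were Fdft1, Sqle and Msmo1, at root mean square distances of 0.152, 0.20 and 0.203 on the log2 scale, where the median distance to all genes was 0.888. Their log2 fold changes were 1.06, 1.00 and 0.97 with SQ1 and 0.48, 0.33 and 0.46 with pravastatin. Fdft1 encodes squalene synthase, Sqle squalene epoxidase and Msmo1 a methylsterol oxidase. The genes nearest to Srebf2 were Sgsm1, Fbxo32 and Dnaaf3, at 0.124 to 0.141. The median distance to all genes was 0.648 for Srebf1, 0.627 for Srebf2 and 0.482 for Insig2. For Mbtps2, Scap and Mbtps1 that median was 0.368, 0.238 and 0.235, so that distances are not compared between members.

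Srebf1, which encodes SREBP-1a and SREBP-1c, moved opposite to Srebf2. Its log2 ratios were -0.68 to -0.07 with SQ1 (median -0.39) and -1.02 to -0.51 with pravastatin (median -0.77). All 16 arrays were below 0, and treated and control levels did not overlap, though they met with SQ1: 10.11 to 10.47 in SQ1-treated cells against 10.47 to 10.92 in their controls, and 9.85 to 10.05 in pravastatin-treated cells against 10.46 to 10.92 in theirs. It was the lowest of the 7 ratios on 7 of 8 SQ1 arrays and on all 8 pravastatin arrays. The log2 fold change was -0.38 ± 0.078 with SQ1 (1.30-fold lower, limma adjusted p = 0.00131) and -0.75 ± 0.078 with pravastatin (1.68-fold lower, limma adjusted p = 2.93e-07). SQ1 minus pravastatin was 0.37 ± 0.11 (limma adjusted p = 0.0106), a fall with SQ1 that was smaller at all 8 replicate numbers. With median centring in place of loess the SQ1 call was lost (-0.27, limma adjusted p = 0.12). The gene has 1 probe, and its file accession does not tell SREBP-1a from SREBP-1c.

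The fall of Srebf1 also differed between the sets of replicates, with both drugs. With SQ1 it was -0.63 ± 0.042 for replicates 1, 2, 5 and 6 and -0.14 ± 0.042 for replicates 3, 4, 7 and 8 (difference -0.49 ± 0.059, limma adjusted p = 0.000668, where 12.1% of all genes differed). With pravastatin it was -0.91 ± 0.042 and -0.59 ± 0.042 (difference -0.33 ± 0.059, limma adjusted p = 0.00137). Each of these 4 estimates was past the threshold, the largest adjusted p in limma being 0.0211. The order of the drugs was the same in both sets, with SQ1 minus pravastatin at 0.29 ± 0.059 in the first and 0.44 ± 0.059 in the second (limma adjusted p = 0.000958 and 1.79e-05).

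Srebf1 has 3 promoter entries, and the one farthest downstream (GRCm38.p6, chr11:60210472-60210721, minus strand, 250 bases, from RefSeq) is shown because SREBP-1c is known to be transcribed under the liver X receptors (LXRs), sterol-sensing nuclear receptors, which bind a site that contains GGTTACT. That motif was added to the search after the expression values were known. Capitals mark this motif and the CCAAT and GC box motifs, on either strand.
Srebf1: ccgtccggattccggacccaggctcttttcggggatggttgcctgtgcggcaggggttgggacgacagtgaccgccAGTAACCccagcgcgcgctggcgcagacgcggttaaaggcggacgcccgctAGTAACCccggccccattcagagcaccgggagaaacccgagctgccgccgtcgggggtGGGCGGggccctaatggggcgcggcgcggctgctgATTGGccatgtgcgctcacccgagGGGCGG
Matches to GGTTACT lay 174 and 123 bases before the start, on the strand opposite to transcription, and ATTGG 30 bases before it, with 2 GC boxes. GGTTACT was in 2.3% of all entries, and 15 of 32851 held it more than once. The genes nearest to Srebf1 in their 16 ratios were Lman1, Lmbrd1 and Xbp1, at distances of 0.0987 to 0.115, with log2 fold changes of -0.37 to -0.39 with SQ1 and -0.74 to -0.84 with pravastatin.

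Insig2, the second retention protein, did not follow Insig1. Its log2 ratios were -0.25 to 0.28 with SQ1 (median 0.048) and -0.91 to -0.43 with pravastatin (median -0.54). SQ1 arrays lay on both sides of 0, pravastatin arrays were all below it, and the drugs did not overlap. The level was 15.31 to 15.69 in SQ1-treated cells against 15.26 to 15.66 in controls, and 14.84 to 15.47 in pravastatin-treated cells against 15.31 to 16.01 in controls. On the log2 scale the fold change was 0.018 ± 0.058 with SQ1 (interval -0.10 to 0.14, limma adjusted p = 0.853) and -0.61 ± 0.058 with pravastatin (1.52-fold lower, limma adjusted p = 1.02e-07). SQ1 minus pravastatin was 0.62 ± 0.082 (limma adjusted p = 9.24e-06) and above 0 at all 8 replicate numbers, by 0.40 to 0.85. A second probe, which carries another accession of the gene, gave 0.093 ± 0.051 with SQ1 (limma adjusted p = 0.193) and -0.64 ± 0.051 with pravastatin (limma adjusted p = 1.51e-08). Both probes therefore fell with pravastatin and neither passed with SQ1. The 2 pravastatin slides, at -0.70 ± 0.076 and -0.51 ± 0.076, did not differ past the threshold (limma adjusted p = 0.225). Its nearest genes were Mal2, Dnajb4 and Mrpl50, at distances of 0.109 to 0.113.

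Within each array the paralogs were set against each other. The log2 ratio of Insig1 exceeded that of Insig2 by 1.03 ± 0.36 with SQ1 and by 0.99 ± 0.40 with pravastatin (SD, n = 8). That of Srebf2, on its brighter probe, exceeded that of Srebf1 by 0.83 ± 0.29 and 1.47 ± 0.16. Both differences were above 0 on every array. The gap between the Insig genes was thus similar with both drugs although its make-up was not: with SQ1 Insig1 rose and Insig2 did not pass the test, and with pravastatin Insig2 fell and Insig1 rose less. Insig1 had the highest ratio of the 7 on all 8 SQ1 arrays, and Srebf2, on its brighter probe, had it on 6 of 8 pravastatin arrays, Insig1 on the other 2. The dimmer Srebf2 probe gave 0.017 to 0.32 with pravastatin and lay below the brighter Mbtps2 probe on every one of these arrays. In pravastatin replicate 7 it lay above the dimmer Mbtps2 probe, at 0.323 against 0.182.

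Scap, the escort and sterol sensor, showed small rises. Its log2 ratios were 0.087 to 0.25 with SQ1 (median 0.16) and -0.077 to 0.20 with pravastatin (median 0.074). In limma the log2 fold change was 0.17 ± 0.030 with SQ1 (1.12-fold, limma adjusted p = 0.000459) and 0.076 ± 0.030 with pravastatin (1.05-fold, limma adjusted p = 0.035). By slide the pravastatin estimate was 0.027 ± 0.040 for replicates 1, 2, 5 and 6 (limma adjusted p = 0.57). For replicates 3, 4, 7 and 8 it was 0.13 ± 0.040 (limma adjusted p = 0.0141). The difference of these slides did not pass (-0.098, limma adjusted p = 0.245). Levels overlapped with both drugs, at 13.62 to 13.84 in SQ1-treated cells against 13.46 to 13.62 in controls and 13.57 to 13.76 in pravastatin-treated cells against 13.46 to 13.65 in controls. SQ1 minus pravastatin was 0.093 ± 0.043 (limma adjusted p = 0.0795), and with the replicate number as a block, which pairs arrays that share a control, it passed (limma adjusted p = 0.0195, where 63.8% of all genes passed). The pravastatin call was lost without any 1 of replicates 2, 3, 4 and 7 (0.057 to 0.073, limma adjusted p of 0.0679 to 0.115) and in several other fits; the SQ1 call was lost with a random block for scan day (0.14, limma adjusted p = 0.0516) and, like most SQ1 calls here, with median centring, under which Scap was at 0.29 with SQ1 and 0.22 with pravastatin (limma adjusted p = 0.0503 and 0.06). The genes nearest to Scap were Pold2, Paqr7 and Gramd3, at distances of 0.0486 to 0.0596.

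Mbtps2, the site 2 protease that makes the second, intramembrane cut, was higher with both drugs and more so with pravastatin. Its log2 ratios were -0.047 to 0.29 with SQ1 (median 0.13) and 0.20 to 0.58 with pravastatin (median 0.40). SQ1 arrays were above 0 on 7 of 8 and pravastatin arrays on all 8. As a log2 fold change this was 0.12 ± 0.041 with SQ1 (1.09-fold, limma adjusted p = 0.0339) and 0.42 ± 0.041 with pravastatin (1.34-fold, limma adjusted p = 1.31e-07). SQ1 minus pravastatin was -0.30 ± 0.058 (limma adjusted p = 0.000382), below 0 at all 8 replicate numbers. The dimmer of the 2 probes gave 0.17 ± 0.042 with SQ1 and 0.42 ± 0.042 with pravastatin. Both probes passed with both drugs, but the SQ1 call of the brighter one was lost without any 1 of replicates 3, 4, 5, 6 and 8 (0.094 to 0.12) and with slide or scan day as a block (limma adjusted p = 0.214 and 0.152). Xpo4, Foxi2 and Oxct2b were nearest to it, at distances of 0.0852 to 0.0946.

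Mbtps1, the site 1 protease that makes the first cut, changed little. Its log2 ratios were -0.30 to 0.033 with SQ1 (median -0.12) and -0.18 to 0.093 with pravastatin (median -0.047). The log2 fold change was -0.14 ± 0.038 with SQ1 (limma adjusted p = 0.00907) and -0.053 ± 0.038 with pravastatin (interval -0.13 to 0.027, limma adjusted p = 0.227). By slide the SQ1 estimate was -0.22 ± 0.042 for replicates 1, 2, 5 and 6 (limma adjusted p = 0.000807). For replicates 3, 4, 7 and 8 it was -0.059 ± 0.042 (limma adjusted p = 0.331). The difference of these slides did not pass (-0.16, limma adjusted p = 0.0888). The drugs did not differ past the threshold (-0.087, interval -0.20 to 0.026, limma adjusted p = 0.183), except in the scanner software's own ratios (-0.17, limma adjusted p = 0.00427). The 2 probes disagreed: the dimmer one gave -0.0067 ± 0.043 with SQ1 (limma adjusted p = 0.932) and 0.031 ± 0.043 with pravastatin (limma adjusted p = 0.554). The SQ1 fall rests on the brighter probe, and it was lost with slide or scan day as a block (limma adjusted p = 0.0666 and 0.0653), with the mean of both probes (-0.073, limma adjusted p = 0.0892) and with median centring (-0.017, limma adjusted p = 0.921). On the brighter probes the ratio of Mbtps2 exceeded that of Mbtps1 by 0.26 ± 0.14 with SQ1 and by 0.47 ± 0.17 with pravastatin (SD, n = 8). With SQ1 this depends on the probe: in SQ1 replicate 1 the dimmer Mbtps1 probe, at 0.117, lay above Mbtps2, at 0.072. Shc1, Rhbdf1 and Ythdf1 were nearest to Mbtps1, at distances of 0.0614 to 0.0678.

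**Figure D3:**
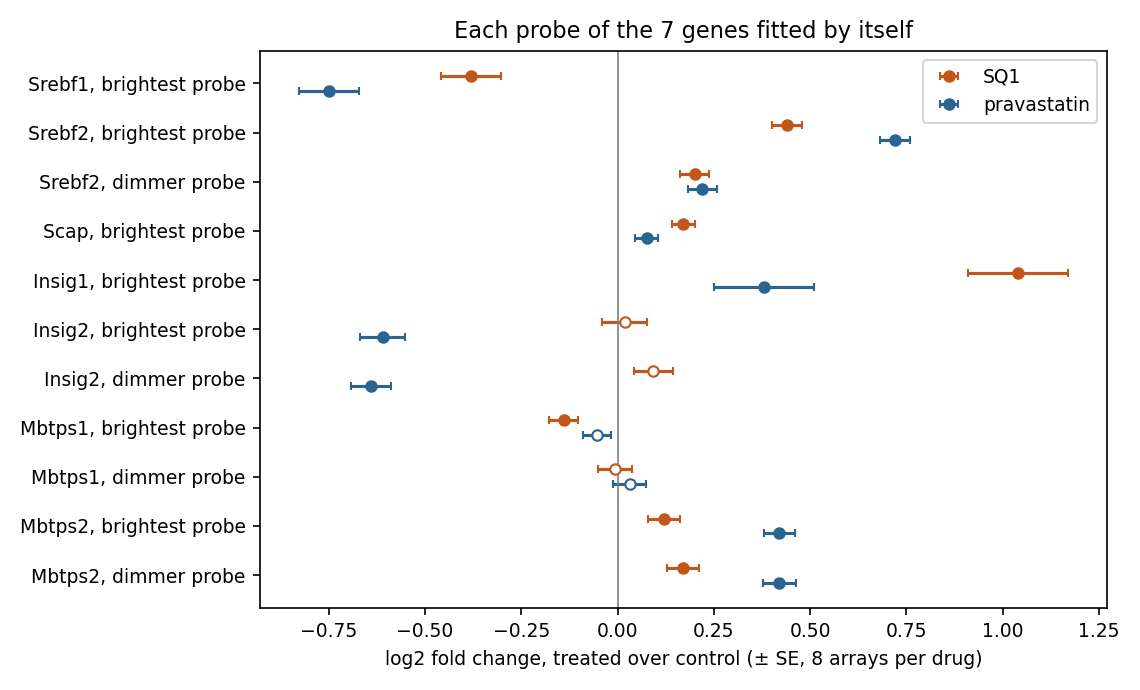
Log2 fold change, treated over control, with its SE (horizontal axis) of each of the 11 probes of the 7 genes, SQ1 in orange and pravastatin in blue; filled points passed an adjusted p of 0.05 over all probes and open points did not. The probes of Insig2 and of Mbtps2 lie together, the dimmer probe of Srebf2 shows smaller rises (0.20 and 0.22) than the brighter one (0.44 and 0.72), and the dimmer probe of Mbtps1 is near 0 (-0.0067 and 0.031).

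Between the drugs 5 of the 7 genes differed, Insig1, Insig2 and Srebf1 being higher with SQ1 than with pravastatin and Srebf2 and Mbtps2 lower, where 53.0% of all genes differed (29.2% higher and 23.8% lower). For Srebf2 this and the values below are those of the brighter probe, as the dimmer one gave -0.017 (limma adjusted p = 0.818). Each of the 5 also passed within both sets of replicate numbers, set against the same numbers of the other drug. For Insig2 these differences were 0.70 ± 0.11 and 0.55 ± 0.11, for Insig1 0.85 ± 0.19 and 0.47 ± 0.19, for Srebf2 -0.21 ± 0.073 and -0.35 ± 0.073, and for Mbtps2 -0.34 ± 0.081 and -0.26 ± 0.081. The largest adjusted p among them was 0.0485 in limma, for Insig1 in the second set, and 46.2% and 45.5% of all genes passed in these comparisons. Every slide carried 1 drug, so that in any one such pair slide and drug cannot be told apart, and in the first set scan day differs with the drug too. With median centring in place of loess, Insig2 alone differed between the drugs past the threshold; the estimates of the other 4 were 0.38 and 0.64 (Srebf1 and Insig1) and -0.27 and -0.28 (Srebf2 and Mbtps2), with limma adjusted p of 0.0679 to 0.0974. A random block for scan day ended the call for Srebf1 (0.28, limma adjusted p = 0.0557).

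Genes downstream of the machinery gave its setting. All 24 genes listed as SREBP-2-responsive, of cholesterol synthesis and uptake, were higher with SQ1 (median log2 fold change 1.02, all genes -0.0024), among them Idi1 (1.41 ± 0.13) and Hmgcs1 (1.38 ± 0.11), which encode isopentenyl diphosphate isomerase and HMG-CoA synthase. With pravastatin 17 were higher and 3 lower (median 0.44, all genes -0.012), with Cyp51, the lanosterol demethylase, at 0.81 ± 0.098. Srebf2 thus rose more with pravastatin on its brighter probe, whereas 22 of these 24 genes were higher with SQ1 than with pravastatin and none was lower. Of 18 SREBP-1-responsive fatty acid genes, 11 were higher and 2 lower with SQ1 (median 0.31), and 5 were higher and 7 lower with pravastatin (median -0.12). Over all genes 32.2% were called with SQ1 and 66.6% with pravastatin, the latter near the share of these 18. Scd2, a stearoyl-CoA desaturase, rose with both drugs, by 1.82 ± 0.068 with SQ1 and 1.54 ± 0.068 with pravastatin. Acss2, which makes acetyl-CoA from acetate, also rose with both (1.54 ± 0.091 with SQ1 and 0.32 ± 0.091 with pravastatin), and Acacb, an acetyl-CoA carboxylase, rose with SQ1 (1.09 ± 0.066) and was at -0.12 ± 0.066 with pravastatin (limma adjusted p = 0.107). Scd1, the main hepatic desaturase, fell with both (-0.59 ± 0.14 with SQ1 and -1.95 ± 0.14 with pravastatin). Srebf1 itself was lower with both drugs.

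LXR-responsive genes were examined because Srebf1 is one. Of 8 tested, 2 were higher and 2 lower with SQ1 (median 0.019), and 1 was higher and 6 lower with pravastatin (median -0.41). The shares called over all genes were 32.2% with SQ1 and 66.6% with pravastatin. Abca1, the cholesterol efflux transporter, was lower with both, at -0.57 ± 0.065 with SQ1 and -1.78 ± 0.065 with pravastatin, and Abcg5, a sterol transporter of the canalicular membrane, fell with pravastatin (-2.05 ± 0.17). Pltp, the phospholipid transfer protein, rose with SQ1 (0.38 ± 0.039), and Lpcat3, a phospholipid acyltransferase, rose with SQ1 (0.35 ± 0.046) and fell with pravastatin (-0.47 ± 0.046). Cyp7a1 was well above background in 2 of 16 control channels and was not tested.

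**Figure D4:**
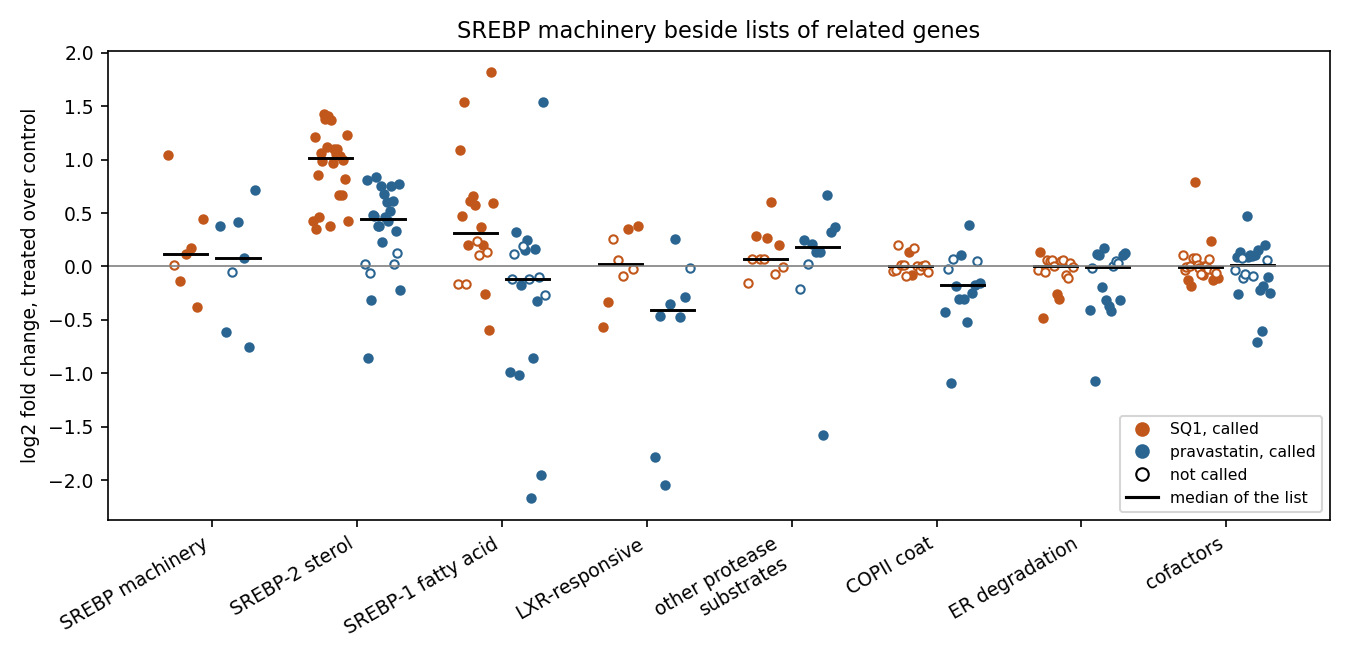
Log2 fold change, treated over control (vertical axis), of each gene of the SREBP machinery and of 7 lists of related genes, SQ1 in orange left of pravastatin in blue; filled points were called, open points were not, and black bars are list medians. The SREBP-2 sterol genes lie above 0 with SQ1 (median 1.02) and lower with pravastatin (median 0.44), while the COPII, degradation and cofactor lists centre near 0 with SQ1.

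The proteins that carry Scap and SREBP out of the endoplasmic reticulum are the COPII coat. Of 14 coat genes, 1 was higher and 1 lower with SQ1, where 32.2% of all genes were called. These were Sec23a at 0.14 ± 0.040 and Sec23b at -0.084 ± 0.031 (limma adjusted p = 0.0113 and 0.0469). Sec23b did not pass in most alternative fits, among them the replicate block (limma adjusted p = 0.0554), the slide block (0.233) and the fit with no background correction (0.0561). Sec23a did not pass with a slide block (limma adjusted p = 0.077), a scan day block (0.098, limma adjusted p = 0.311) or median centring (0.26, limma adjusted p = 0.0513). Sec23a was also higher with pravastatin (0.11 ± 0.040). With pravastatin 2 coat genes were higher and 9 lower (median -0.17), where 30.8% of all genes were higher and 35.8% lower (median -0.012). The largest changes were those of Sar1b (-1.09 ± 0.11), the coat's GTPase, Sec24a (-0.52 ± 0.082), a cargo-binding subunit, and Preb (-0.43 ± 0.038), which activates Sar1. Of 16 genes for the sterol-regulated degradation of proteins of the endoplasmic reticulum, Insig among them, 1 was higher and 3 lower with SQ1, and 5 were higher and 7 lower with pravastatin. These shares lie near the 32.2% and 66.6% called over all genes, and with median centring none of the 16 was called with SQ1. Erlin1, of the erlin scaffold, was at -0.48 ± 0.11 with SQ1 and -1.07 ± 0.11 with pravastatin, and the ubiquitin ligase gene Syvn1 at -0.30 ± 0.045 and -0.42 ± 0.045. Rnf145, another ligase of the membrane, fell with both drugs (-0.26 ± 0.054 with SQ1 and -0.37 ± 0.054 with pravastatin).

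Of 22 SREBP cofactors and regulators, 2 were higher and 5 lower with SQ1, and 9 were higher and 7 lower with pravastatin, again near the 32.2% and 66.6% called over all genes. Lpin1, which encodes lipin 1 and in mouse liver is known to hold SREBP in check in the nucleus, rose with both drugs (0.79 ± 0.061 with SQ1 and 0.47 ± 0.061 with pravastatin). Rxra, the partner of LXR, rose with SQ1 (0.24 ± 0.048, a call lost with a scan day block at 0.20, limma adjusted p = 0.0924) and fell with pravastatin (-0.18 ± 0.048, limma adjusted p = 0.00392). Fbxw7, whose product marks nuclear SREBP for degradation, was at -0.18 ± 0.060 with SQ1 (limma adjusted p = 0.0295), a call lost with a block for replicate number, slide or scan day (limma adjusted p = 0.0565, 0.145 and 0.51). Nr1h3, which encodes LXR-alpha, and Ppargc1b, a coactivator of SREBP-1, fell with pravastatin (-0.71 ± 0.037 and -0.60 ± 0.061). Among 10 other substrates and partners of the site 1 and site 2 proteases, 4 were higher and none lower with SQ1, and 7 were higher and 1 lower with pravastatin. The shares over all genes are the 32.2% and 66.6% given above. Creb3l3, a liver transcription factor held in the membrane and cut by the same proteases, moved opposite ways, at 0.60 ± 0.10 with SQ1 and -1.58 ± 0.10 with pravastatin. Atp6ap2 rose with SQ1 (0.29 ± 0.043), Creb3l2 rose with both drugs (0.27 ± 0.060 with SQ1 and 0.14 ± 0.060 with pravastatin), and Creb3l4 (0.67 ± 0.040) and Spring1 (0.37 ± 0.035), whose product is a known partner of the site 1 protease, rose with pravastatin.

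Markers of hepatocytes moved with pravastatin. All 10 were lower (median -1.38). Over all genes 35.8% were lower and 30.8% higher with pravastatin, and 16.5% lower and 15.7% higher with SQ1. The summed intensity of the 10 was 470100 to 977714 in pravastatin-treated cells against 1499428 to 1753185 in controls. With SQ1 5 of 10 were lower and none higher (median -0.20), with sums of 946350 to 1479502 against 1093469 to 1701168. The part of this shift in the falls of Srebf1 and Insig2 was not tested, and in bulk RNA fewer cells of a type and less RNA per cell cannot be told apart. Kupffer cell and leukocyte markers were lower for 5 of 9 with SQ1 and 7 of 9 with pravastatin, with none higher and sums of 7839 to 17183 in pravastatin-treated cells against 10349 to 21019 in controls. Of 10 stellate cell markers, 2 were higher and 1 lower with SQ1, and none higher and 3 lower with pravastatin. Of 10 endothelial markers, 5 were higher and none lower with SQ1, and 4 higher and 4 lower with pravastatin. Of 9 cholangiocyte markers, none was higher and 4 lower with SQ1, and 1 higher and 5 lower with pravastatin. The sums of these lists over the pravastatin arrays were 75066 to 109137 against 78814 to 123120 in controls for stellate cells, 9787 to 14590 against 11600 to 15828 for endothelium, and 207903 to 264478 against 146950 to 359062 for cholangiocytes. Over the SQ1 arrays the sums were 8908 to 16854 in treated cells against 10450 to 20667 in controls for Kupffer cells, 67783 to 106023 against 72198 to 117394 for stellate cells, 13447 to 16315 against 11601 to 15580 for endothelium and 113973 to 233055 against 156758 to 319121 for cholangiocytes. Of the Kupffer cell markers, Cd68 had no named probe.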

How the data were processed

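The deposited scanner files give, per the file headers, median spot and background intensity values in both channels, and the log10 ratio of the processed red and green signals; the authors used Agilent Feature Extraction 11.0.1.1, as the file headers state. The series table that the authors deposited holds log2 values by probe and array, which followed the scanner ratio turned to treated over control (correlation 0.742 to 0.999 over probes). Its centring was not stated; column medians were -0.0677 to 0.14.

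From these files, median intensities were corrected by normexp (offset 50) and loess within each array in limma 3.58.1 (R 4.3.3), and outlier-flagged spots were left out. Between 208 and 369 spots per array were flagged, and 59.7% to 70.1% of probes were well above background in the treated channel. The number of arrays, 8 per drug, limits the precision. Of 39429 probes, 27234 were named through RefSeq accessions for 20659 genes. A probe was kept if it was well above background on 4 treated channels of a drug or 8 control channels, with ratios on 7 arrays per drug, and the brightest probe stood for a gene. Ratios were fitted with 1 coefficient per drug and a dye term (lmFit, eBayes, two-sided, 13 residual degrees of freedom), with Benjamini-Hochberg adjustment over 15091 genes. Ratios per array have the dye effect removed. Levels are channel log2 intensities with average intensities quantile-normalised between arrays (Aquantile), and are not compared between genes. The same fit by slide gave the within-slide values, and simulated data checked the script. The series describes the cultures as biological replicates.

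Replicate numbers pair the drugs: the deposited files name the same control for the same number, and same-number deviations correlated at 0.221 to 0.718 in all 8 pairs, although the best match was the array of the same number for only 3 of the 8. The fit without the block is the main one, as planned. SQ1 replicates correlated at 0.0729 to 0.78 with each other and pravastatin replicates at 0.792 to 0.954.

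Members, gene lists and tests were chosen with earlier results of these data known. All 7 members are described; from each list the 3 called genes with the largest change with each drug are named, except some that are not reported here, and for each member the 3 genes with the smallest root mean square distance over 16 arrays. Alternatives changed background, normalisation, filter, probe rule, dye term, blocks, weights, threshold and arrays. Promoters come from the RefSeq table (GRCm38.p6), which has entries for all 7 genes.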

Additional observations from a re-analysis of the deposited data

Results flagged for a closer look

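On the pravastatin arrays, replicate 7 of Srebf2 had a log2 ratio of 0.93, set apart from the other 7, which were 0.65 to 0.76. Of 14 sets of 8 arrays examined for such a gap, this was the 1 that showed it, and chance flags about 1 set in 20. Without that array the log2 fold change of Srebf2 with pravastatin was still called.

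The change of Srebf1 differed between the slides of each drug, by -0.49 on the log2 scale with SQ1 and by -0.33 with pravastatin, replicates 1, 2, 5 and 6 minus replicates 3, 4, 7 and 8. The change of Insig1 with pravastatin differed in the same comparison by -0.70. All 3 passed the test of the difference (limma adjusted p of 0.000668, 0.00137 and 0.0139).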

How the results depend on the processing

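The number of members called was 6 with SQ1, 6 with pravastatin and 5 for SQ1 minus pravastatin. Median centring in place of loess left 2 (Insig1 and Srebf2) with SQ1 and 1 (Insig2) for the difference, and scan day as a random block left 3 with SQ1. Leaving out 1 array gave 5 to 6, 4 to 6 and 5 to 6. The replicate block changed 3 calls of named genes: Scap was gained for SQ1 minus pravastatin, and Sec23b and Fbxw7 were lost with SQ1. Signs turned, with no call either way under the alternative, for Insig2 with SQ1 (-0.035 with scan day as a block, -0.022 without SQ1 replicate 6, where leaving out single arrays gave -0.022 to 0.059), for Mbtps1 with pravastatin (0.11 with median centring, 0.026 with the scanner software's ratio and with the deposited table) and for Sec23b with SQ1 (0.035 with median centring). Scap for SQ1 minus pravastatin was also gained with array weights (limma adjusted p = 0.0418) and without pravastatin replicate 7 (limma adjusted p = 0.0324). The Sec23b call was lost without any 1 of SQ1 replicates 1, 2, 3, 6 and 8, and that of Fbxw7 without any 1 of 1, 5, 6 and 7.

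Over all genes, 4864 were called with SQ1, against 2071 with median centring, 2543 with the slide block, 2245 with the scan day block and 3119 at an adjusted p of 0.01; for SQ1 minus pravastatin 8002 were called, against 3700 with median centring. Among called genes 48.7% were higher with SQ1 and 46.3% with pravastatin, against 71.1% and 61.0% with median centring; the scanner ratios gave 56.8% with pravastatin, and 44.7% against 55.1% for the difference. With median centring, calls with SQ1 were 0 in the COPII list (main 2), 0 of the degradation genes (4), 2 of the cofactors (7), 2 of the hepatocyte markers (5) and 3 of the Kupffer cell markers (5); with pravastatin they were 5 in the COPII list (11). With SQ1 the COPII list had 4 with the mean of all probes, and 0 with the slide block, the scan day block and at an adjusted p of 0.01. It had 1 in most other fits, among them those with no background correction, the scanner ratios, the replicate block and no dye term. The cofactors had 3 with the slide block, without SQ1 replicate 6 and at an adjusted p of 0.01, 2 with the scan day block, and 10 with pravastatin and the slide block (16). The scan day block left 7 fatty acid genes with SQ1 (13). Of the alternative counts for the lists and for all genes, the member counts left out, 44 of 574 moved by over 1.5 times. The causes were not tested. Every probe of the 7 genes was well above background on every array. Whether lower signal made the changes of the dimmer Srebf2 and Mbtps1 probes smaller was not tested. The small changes of Scap and Mbtps1 rest on 8 arrays per drug.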
